A study of Mus musculus with 4 samples.

Results

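The glucocorticoid receptor gene Nr3c1 and 8 genes known to be induced through it (Fkbp5, Tsc22d3, Hif3a, Zbtb16, Sgk1, Klf9, Errfi1 and Cebpd) were read in mouse heart. They are 9 of the 37008 gene names on the array, and their probes were taken by gene name alone. All 19 probes that carry these names, of 56605 probes, were read. Of these, 16 were present (the P flag, a signal well above background and free of outlier marks) on at least 1 array, against 30409 of all probes.

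RNA from hearts of female C57BL/6J mice was read on 4 single-channel Agilent arrays of a single slide, with 1 array for each condition. The CY mice received cyclophosphamide, an alkylating anticancer drug, at 400 mg/kg. The acrolein mice received acrolein, a reactive aldehyde formed from CY, at 5 mg/kg. The NAC + CY mice received N-acetylcysteine (NAC), a thiol antioxidant, at 200 mg/kg, followed 2 h later by CY at 400 mg/kg. The NS control mice received normal saline. Injections were intraperitoneal, once a day for 2 days, and a piece of each heart was frozen 3 h after the last dose. The labels give an age of 6 weeks and the methods 5 weeks, and all mice were anaesthetised with medetomidine, midazolam and butorphanol at collection. Whether the RNA on an array came from 1 heart or from several pooled hearts is not given in the sources used here. The 3 comparisons with NS share 1 NS array. Replicates were lacking for every condition, so no difference could be checked against biological spread and none was tested.

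Glucocorticoids, in mice chiefly corticosterone, are secreted by the adrenal cortex in a daily rhythm and during stress and illness. They enter cells and bind a receptor that is held in the cytoplasm by Hsp90 and its co-chaperones. The bound receptor moves to the nucleus, where pairs of it sit on an inverted repeat of AGAACA with a gap of 3 bases and raise the transcription of nearby genes. It also restrains inflammatory genes through other transcription factors. Cardiomyocytes carry the receptor, and in heart its targets bear on ion channels, metabolism and the response to injury.

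On the array, each gene is read by DNA probes of 60 bases. The second Fkbp5 probe is shown because the largest difference among the 9 genes was read again at this separate site of the same transcript, at chr17:28574995-28575054 (mm9, minus strand).
Fkbp5, probe 2: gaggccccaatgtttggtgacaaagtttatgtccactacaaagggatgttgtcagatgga

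The region from 250 bases before to 50 bases after a start site was taken from RefSeq (GRCm38.p6) for 6 of the 9 genes, which have 14 such windows in all. The hexamer AGAACA was sought on both strands, as were the receptor core ACANNNTGT and the full inverted repeat, which holds 2 hexamers and a core. On the opposite strand the hexamer reads TGTTCT. The hexamer is present in 19.0% of all 32851 windows, the core in 6.85% and the full repeat in 0.00913%, that is in 3 windows. Of the 14 windows, 4 hold the hexamer, 2 the core and 1 the full repeat. Apart from 1 Tsc22d3 window with the hexamer, all of these belong to Sgk1, which has 6 of the 14 windows. The counts therefore describe mainly 1 gene and not the set. The windows below, with matched motifs in capitals, belong to Sgk1, which was called in no comparison, and to Tsc22d3 and Fkbp5, which were called higher on CY. The full repeat is in 1 of 6 Sgk1 windows, at chr10:21993640-21993939 (plus strand), whereas 1 of 3 Tsc22d3 windows, at chrX:140600473-140600772 (minus strand), holds a single hexamer and the Fkbp5 window, at chr17:28486100-28486399 (minus strand), holds no match.
Sgk1: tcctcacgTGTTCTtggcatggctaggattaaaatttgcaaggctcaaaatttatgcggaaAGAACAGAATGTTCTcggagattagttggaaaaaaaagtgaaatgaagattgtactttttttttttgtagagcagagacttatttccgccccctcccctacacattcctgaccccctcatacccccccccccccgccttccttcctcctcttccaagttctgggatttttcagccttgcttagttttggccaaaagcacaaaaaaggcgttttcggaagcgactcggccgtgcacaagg
Tsc22d3: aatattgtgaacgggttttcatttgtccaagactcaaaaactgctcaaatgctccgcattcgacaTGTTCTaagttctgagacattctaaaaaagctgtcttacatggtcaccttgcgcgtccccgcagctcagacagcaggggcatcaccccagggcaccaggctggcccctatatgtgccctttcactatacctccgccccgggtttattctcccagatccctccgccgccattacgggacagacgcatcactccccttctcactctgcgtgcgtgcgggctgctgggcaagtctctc
Fkbp5: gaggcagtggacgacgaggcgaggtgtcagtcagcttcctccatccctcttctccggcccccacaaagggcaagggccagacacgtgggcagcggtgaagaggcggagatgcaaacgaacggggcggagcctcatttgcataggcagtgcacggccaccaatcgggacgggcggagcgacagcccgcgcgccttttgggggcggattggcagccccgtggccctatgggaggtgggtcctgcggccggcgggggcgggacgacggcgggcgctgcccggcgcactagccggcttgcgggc
A match is a description of letters and not of receptor binding, and receptor sites of many genes lie far outside such windows.

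Signals are given in normalised fluorescence units, which were brought to a common distribution over the 4 arrays, and they compare arrays within a probe and not probes with each other. The log2 ratio of a probe was set against those of 200 probes of similar brightness, and its distance from their mean in units of their SD is the Z-score. A probe was called higher where the Z-score reached 2 and the ratio 1.5, and lower where the Z-score was -2 or less and the ratio 0.66 or less. A gene is represented by its brightest present probe. For the 9 genes the other probes are given beside it, and for all other genes only the brightest is given. Probes printed in several spots had a spot-to-spot SD between 0.057 and 0.078 on the log2 scale. Each probe of the 9 genes has a single spot, and this spread leaves out the difference between hearts. All 10 cardiomyocyte markers were present on every array. Their summed signals were 1408151 units on the CY array, 1680486 on acrolein, 1474812 on NAC + CY and 1680375 on NS. These sums weigh the brightest markers most. Of the 10 markers, 3 were called lower than NS on both CY and NAC + CY, and none was called on acrolein. The log2 ratios for CY and NAC + CY were -1.47 and -1.11 (Ttn), -1.39 and -1.24 (Ryr2), and -1.3 and -1.08 (Actc1). The medians of the 10 markers were -0.31 (CY), 0.04 (acrolein) and -0.1 (NAC + CY). In whole tissue, fewer cells of a type and less RNA per cell cannot be told apart.

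In the CY-treated heart, 5 of the 9 genes were called higher than in NS and none lower. They were Fkbp5, Hif3a, Cebpd, Tsc22d3 and Errfi1, with log2 ratios between 0.82 and 1.81. The receptor gene itself and Sgk1, Klf9 and Zbtb16 were not called, with log2 ratios between -0.38 and -0.02. By probes, 8 of 16 were called higher, whereas 2.84% of all 28757 probes tested were called higher, 2.55% lower and thus 5.39% in all. The 9 genes were chosen with earlier results of these data known, so this share is a description only. The median log2 ratio of the 9 genes was 0.82, beside -0.01 over all probes, whose 5th and 95th percentiles were -0.94 and 1.06. At a Z-score of at least 3 only Fkbp5 was called, and at a ratio of at least 2 only Fkbp5 and Hif3a. Hif3a was not called with 75th percentile scaling, nor Errfi1 with normexp background correction.

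**Figure D1:**
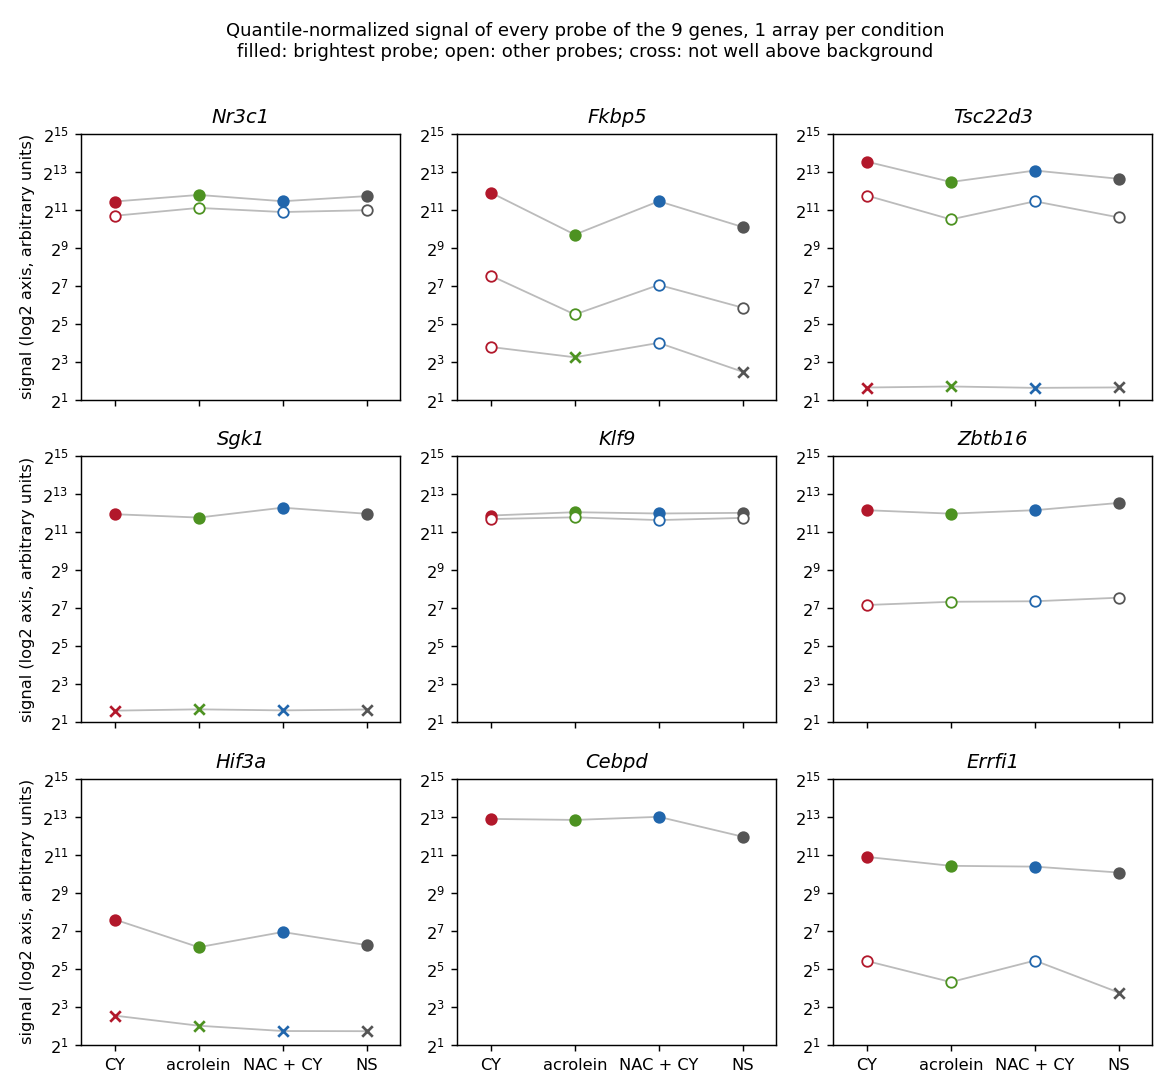
Normalised signal (log2 axis, arbitrary units) of every probe of the 9 genes on the CY, acrolein, NAC + CY and NS arrays, with filled points for the brightest probe of a gene, open points for its other probes and crosses where the signal was not well above background. Fkbp5 and Hif3a form the same zigzag, high on CY and NAC + CY and low on acrolein and NS, whereas Cebpd is low on NS alone and Klf9 is level within 0.14 log2 units of NS.

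Nr3c1 encodes the receptor that all the other genes answer to, and it can be lowered by its own ligand. Its signal was 2746 units on the CY array, 3491 on acrolein, 2773 on NAC + CY and 3342 on NS. The log2 ratios to NS were -0.28 (CY), 0.06 (acrolein) and -0.27 (NAC + CY). Both arrays from CY-treated mice were thus slightly below the acrolein and NS arrays, and none of the differences was called. The second probe read 1632 units on CY, 2174 on acrolein, 1870 on NAC + CY and 2000 on NS, with log2 ratios of -0.29, 0.12 and -0.10 in the same order.

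Fkbp5 encodes FKBP51, a co-chaperone of Hsp90 that lowers the affinity of the receptor for hormone, so its induction is a feedback on the receptor. The brightest probe, at chr17:28536060-28536119 (mm9), read 3796 units on the CY array, 821 on acrolein, 2774 on NAC + CY and 1082 on NS. This is 3.51-fold over NS for CY (log2 ratio 1.81, Z-score 3.68) and 2.56-fold for NAC + CY (1.36, Z-score 2.95), and both were called. The CY ratio was above that of 98.1% of all probes. For acrolein the log2 ratio was -0.40, and despite a Z-score of -2.68 the ratio did not reach 0.66. The probe printed above read 183 units on CY, 44.5 on acrolein, 131 on NAC + CY and 57.0 on NS. Its log2 ratio of 1.68 for CY was called and that of 1.20 for NAC + CY, with a Z-score of 1.82, was not. Probe 3, to another transcript in the Fkbp5 region, was above background only on the CY (13.6 units) and NAC + CY (15.8 units) arrays. It was not called, and its signals were below the lowest level accepted as above background on NS, so no fold is given. All 3 probes thus had their highest 2 signals on the CY and NAC + CY arrays.

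Tsc22d3 encodes GILZ, a leucine zipper protein that binds NF-kappaB and AP-1 and carries part of the anti-inflammatory action of glucocorticoids. Its brightest probe, at chrX:137074094-137074153 (mm9), read 11744 units on CY, 5597 on acrolein, 8498 on NAC + CY and 6286 on NS. The CY ratio of 1.87-fold was called (log2 ratio 0.90, Z-score 2.28). The log2 ratio was -0.17 for acrolein and 0.44 for NAC + CY, neither called. A second probe, at chrX:137074801-137074860 on the same transcript, read 3407 units on CY, 1428 on acrolein, 2764 on NAC + CY and 1536 on NS. Here both CY (1.15) and NAC + CY (0.85, Z-score 2.24) were called, so the probes differ in the NAC + CY call, while the order of the arrays is the same. Probe 3, to another transcript, was above background on no array.

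Hif3a encodes an alpha subunit of the hypoxia-inducible factors, of which some forms hold back its relatives, and it is induced by glucocorticoids in several tissues. Its probe at chr7:17616855-17616914 (mm9) read 194 units on CY, 70.7 on acrolein, 123 on NAC + CY and 76.4 on NS. The CY ratio was 2.53-fold and was called (log2 ratio 1.34, Z-score 2.20). NAC + CY lay between CY and NS, with a log2 ratio to NS of 0.68 that was not called, and acrolein was at -0.11. The other Hif3a probe was above background on no array.

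Cebpd encodes C/EBP-delta, a transcription factor of the acute-phase response that inflammatory cytokines induce as well as glucocorticoids. It was the only gene of the 9 called higher on all 3 treated arrays. The signal was 7624 units on CY, 7346 on acrolein, 8226 on NAC + CY and 3984 on NS, read at chr16:15888459-15888518 (mm9). The folds over NS were 1.91 (CY), 1.84 (acrolein) and 2.06 (NAC + CY). The treated arrays therefore lay close together, and NAC + CY over CY had a log2 ratio of 0.11 and CY over acrolein one of 0.05. All 4 neutrophil markers were present, and their summed signal was also highest on the treated arrays, with 1611 units on CY, 3001 on acrolein, 4202 on NAC + CY and 530 on NS. Their part in the Cebpd signal was not tested. With the acrolein array in place of NS, an alternative added after the data were seen, Cebpd was not called on CY (0.05) or NAC + CY (0.16).

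Errfi1 encodes MIG6, which binds and inhibits the kinases of the EGF receptor family. Its brightest probe, at chr4:150242886-150242945 (mm9), read 1904 units on CY, 1376 on acrolein, 1337 on NAC + CY and 1077 on NS. CY alone was called, at 1.77-fold (log2 ratio 0.82, Z-score 2.24). For acrolein the log2 ratio was 0.35 and for NAC + CY 0.31. A second probe, at chr4:150229849-150229908 and to another transcript, read 42.7 units on CY, 19.8 on acrolein, 43.4 on NAC + CY and 13.5 on NS, where it was not well above background. Set against the lowest signal well above background on NS, CY was at least 2.59-fold and NAC + CY at least 2.63-fold higher, both called, and acrolein at least 1.20-fold, not called. The probes thus agree for CY and differ for NAC + CY.

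Sgk1, Klf9 and Zbtb16 were not called in any comparison. Sgk1 encodes a kinase named for its induction by serum and glucocorticoids, which acts on ion channels and transporters. Its signal was 3953 units on CY, 3499 on acrolein, 5017 on NAC + CY and 4016 on NS, read at chr10:21719390-21719449 (mm9), and the largest log2 ratio to NS was 0.32, on NAC + CY. The other Sgk1 probe was above background on no array. Sgk1 is also the gene whose window, printed above, holds the full inverted repeat.

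Klf9 encodes a Krüppel-like transcription factor that glucocorticoids induce in many cell types. It read 3767 units on CY, 4254 on acrolein, 4058 on NAC + CY and 4154 on NS at chr19:23240410-23240469 (mm9), the narrowest range of the 9 genes. Its second probe read 3313 units on CY, 3529 on acrolein, 3190 on NAC + CY and 3457 on NS. No log2 ratio of either probe to NS exceeded 0.03, and the lowest was -0.14.

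Zbtb16 encodes PLZF, a zinc-finger transcription factor strongly induced by glucocorticoids in human cells. It read 4573 units on CY, 4035 on acrolein, 4580 on NAC + CY and 5966 on NS at chr9:48462419-48462478 (mm9). All 3 treated arrays were below NS. The log2 ratio for acrolein was -0.56 with a Z-score of -4.34, a 1.48-fold difference that narrowly missed the ratio criterion, and those for CY and NAC + CY were both -0.38. A second probe read 144 units on CY, 162 on acrolein, 165 on NAC + CY and 188 on NS, and was also lower on each treated array than on NS, without a call. With the acrolein array in place of NS the log2 ratio of the brightest probe turned to 0.18 for both CY and NAC + CY.

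In the acrolein-treated heart, Cebpd was the only 1 of the 9 genes called higher than in NS, and none was called lower. By probes this was 1 of 15, whereas 1.05% of all 28665 probes were called higher, 1.24% lower and 2.29% in all. The median log2 ratio of the 9 genes was -0.11, beside 0.01 over all probes. Ratios of acrolein to NS spread less over all probes, with 5th and 95th percentiles of -0.45 and 0.53, so a given ratio has a larger Z-score here than for CY. At a ratio of at least 2 Cebpd was not called.

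In the NAC + CY heart, Fkbp5 and Cebpd were called higher than in NS, 2 of the 9 genes, and none lower. Tsc22d3 and Errfi1 were called by their second probes only, so that 4 of 16 probes were called higher, whereas 2.32% of all 28885 probes were called higher, 2.28% lower and 4.6% in all. The median log2 ratio of the 9 genes was 0.32, beside 0.01 over all probes. With the median over the probes of a gene Fkbp5 was not called for NAC + CY, and at a Z-score of at least 3 neither gene was.

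**Figure D2:**
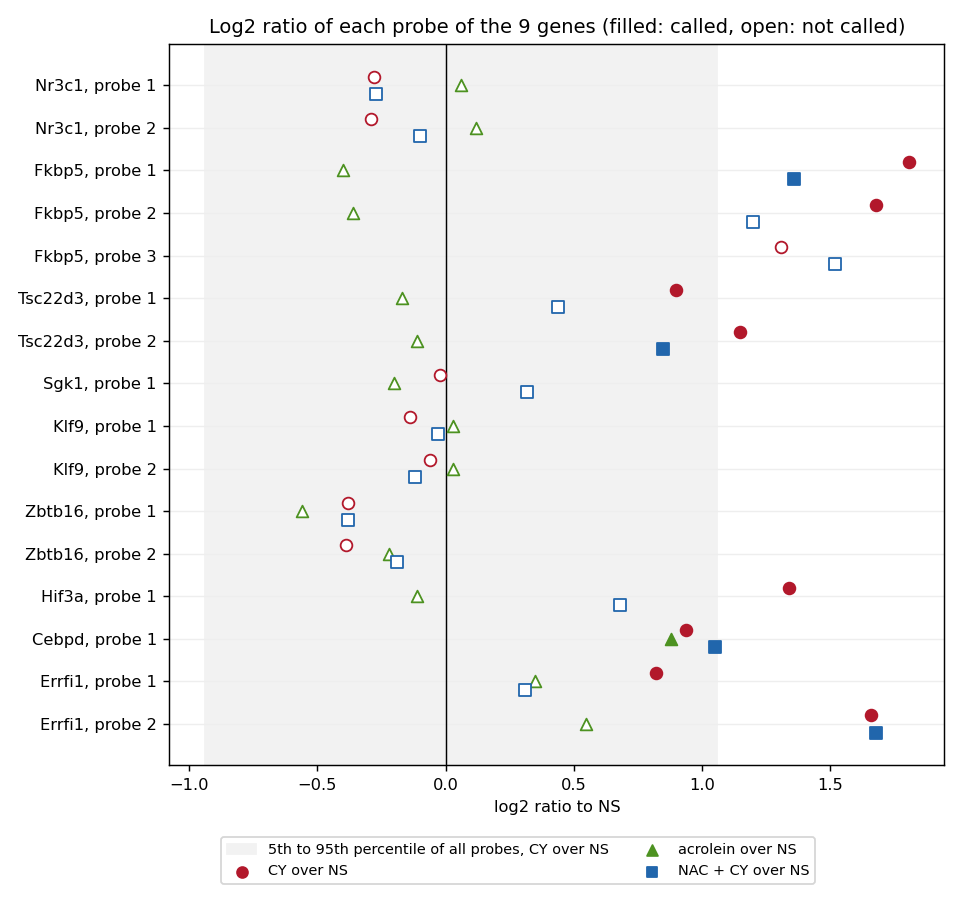
Log2 ratio to NS of each probe of the 9 genes that was present, for CY (circles), acrolein (triangles) and NAC + CY (squares), filled where called and with the grey band spanning the 5th to 95th percentile of all probes for CY over NS. The 3 Fkbp5 probes and the second Errfi1 probe lie right of the band for both CY and NAC + CY, and the acrolein points lie between -0.56 and 0.55 except for Cebpd at 0.88. For probe 3 of Fkbp5 and probe 2 of Errfi1 NS was not well above background, so the plotted ratio is that of the measured signals.

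NAC + CY was also compared directly with CY, the heart given the same drug without NAC. The hepatocyte marker Alb was at least 294-fold higher on NAC + CY, and differences of tissue piece and of NAC cannot be told apart. None of the 9 genes was called in either direction, and none of 16 probes, whereas 1.25% of all 29350 probes were called higher, 2.34% lower and 3.58% in all. By brightest probe, the log2 ratios were -0.66 for Hif3a, -0.51 for Errfi1, -0.47 for Tsc22d3, -0.45 for Fkbp5 and 0.11 for Cebpd. Probe 3 of Fkbp5 (0.21) and probe 2 of Errfi1 (0.02) were not lower on NAC + CY. These 5 genes were called for CY because they were high on the CY array, which is the denominator here. Lower values on NAC + CY are favoured by that choice, so no effect of NAC can be read from them. For Tsc22d3 the Z-score of -2.65 passed and the ratio did not. Sgk1 had the highest log2 ratio, 0.34. The median of the 9 genes was 0.00, beside 0.03 over all probes. Hif3a was called lower when the ratio alone was used, when the Z-score used the median and MAD, or with a window of 100 probes.

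CY was also compared with acrolein. Fkbp5 was 4.62-fold higher on CY (log2 ratio 2.21, Z-score 4.34), Hif3a 2.74-fold (1.45) and Tsc22d3 2.10-fold (1.07), and these 3 of the 9 genes were called higher and none lower. By probes 5 of 16 were called higher, whereas 2.75% of all 29639 probes were called higher, 2.33% lower and 5.08% in all. Errfi1, at 0.47, and Cebpd, at 0.05, were called against NS and not against acrolein. The median of the 9 genes was 0.18, beside -0.02 over all probes.

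Markers of other tissues differed between the arrays. The mesothelium list, with 6 of 6 present, summed to 5969 units on CY, 1002 on acrolein, 1913 on NAC + CY and 2009 on NS, and was thus highest on CY. The adipocyte list (5 of 5 present) summed to 5444 units on CY, 1014 on acrolein, 14300 on NAC + CY and 4071 on NS, and was highest on NAC + CY. Atrial muscle markers (5 of 5) summed to 796958 units on CY, 380170 on acrolein, 488066 on NAC + CY and 304566 on NS, so that CY and NAC + CY were the highest 2. Platelet markers (4 of 4) summed to 6888 units on CY, 2751 on acrolein, 2017 on NAC + CY and 2810 on NS. Hepatocyte markers (4 of 4) summed to 187 units on CY, 46.5 on acrolein, 7269 on NAC + CY and 78.6 on NS. Airway markers (2 of 2), among them the club cell protein gene Scgb1a1, summed to 345 units on CY, 32.6 on acrolein, 13.3 on NAC + CY and 367 on NS. The part of these tissues in the signals of the 9 genes was not tested. With the acrolein array, which was lower than NS in mesothelium, adipocyte and airway markers, in place of NS, Fkbp5 had a log2 ratio of 2.21 for CY and 1.76 for NAC + CY, both called. In these marker sums CY lies further from acrolein than from NS, so the CY ratio is no check on tissue composition.

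A list of 30 other genes that glucocorticoids are known to induce was read beside the 9. The medians of this and the following lists stand beside medians of all probes between -0.02 and 0.03 in the 5 comparisons. All lists were chosen with earlier results of these data known, so the shares called are descriptions and not independent evidence. The shares of a list count genes by their brightest present probe, whereas those of all probes count single probes. In the CY-treated heart 10 of 30 were called higher (33.3%) and 1 lower (3.33%), beside 2.84% higher and 2.55% lower of all probes, with a median log2 ratio of 0.53. At a Z-score of at least 3 the count called higher was 5. Arrdc2, an arrestin-domain gene, read 4112 units on CY, 1528 on acrolein, 3434 on NAC + CY and 1571 on NS. Map3k6, a stress-activated kinase gene, read 2346 units on CY, 711 on acrolein, 1699 on NAC + CY and 825 on NS. Both have the order of arrays seen for Fkbp5. The phenol sulphotransferase gene Sult1a1 read 5777 units on CY, 2970 on acrolein, 6635 on NAC + CY and 2896 on NS. Sult1a1, the tyrosine-degrading enzyme gene Tat (1.56), the annexin gene Anxa1 (1.24), whose product dampens inflammation, and the lipoprotein lipase inhibitor gene Angptl4 (0.84) were also called higher, and Ptgds, which encodes a prostaglandin D synthase, was called lower (-0.91).

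The other 4 genes called higher on CY have strong inducers besides glucocorticoids. Such inducers were not reviewed for the genes named before them, so this is no contrast between them. Mt2 (log2 ratio 2.97) and Mt1 (1.38) encode metallothioneins, which metals also induce. Cdkn1a (2.60) encodes the cell cycle inhibitor p21, a target of p53. Lcn2 (2.47) encodes lipocalin 2, an acute-phase protein also stored in neutrophils. Several classical targets were not called on CY, among them the clock gene Per1 (0.45), the phosphatase gene Dusp1 (-0.22), the mTORC1 inhibitor gene Ddit4 (0.41) and Klf15 (0.38), a transcription factor gene of heart and muscle metabolism.

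For NAC + CY, 11 of the 30 were called higher (36.7%) and 1 lower (3.33%), beside 2.32% higher and 2.28% lower of all probes, with a median of 0.51. Per1 read 4988 units on CY, 3707 on acrolein, 7642 on NAC + CY and 3640 on NS, and was called higher on NAC + CY over both NS (1.07) and CY (0.62). Rgs2 (0.96), a regulator of G-protein signalling, and Pck1 (2.85), which encodes the first committed enzyme of gluconeogenesis, were called here and not for CY. Il1r2, which encodes a decoy receptor for interleukin-1, was at least 3.42-fold higher on NAC + CY, with NS not well above background. Arrdc2 (1.13), Map3k6 (1.04), Sult1a1 (1.20), Mt1 (1.22), Mt2 (2.52), Lcn2 (2.70) and Cdkn1a (2.33) were called on this array as well as on CY. Pck1 read 221 units on CY, 49.7 on acrolein, 963 on NAC + CY and 133 on NS, and its order is that of the adipocyte and the hepatocyte sums given above, whose part was not tested.

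For acrolein, Angptl4 (0.63) and Lcn2 (0.73) were called higher and Pck1 lower (-1.43), with a median of 0.09 over the 30. These are 6.67% higher and 3.33% lower, beside 1.05% and 1.24% of all probes, and at a ratio of at least 2 none was called higher. Angptl4 read 4376 units on CY, 3792 on acrolein, 748 on NAC + CY and 2444 on NS. It is the only gene of the 30 called higher on CY and lower on NAC + CY (-1.71). Over CY, NAC + CY was higher for Per1, Pck1 (2.12) and Ptgds (1.21) and lower for Angptl4 (-2.55), Anxa1 (-1.13), Txnip (-0.60), which encodes a thioredoxin inhibitor, and Pdk4 (-1.45), which encodes the kinase that blocks pyruvate oxidation. That is 3 higher and 4 lower of 30, beside 1.25% and 2.34% of all probes, with a median of 0.00. For CY over acrolein 10 were higher (33.3%) and 1 lower (3.33%), beside 2.75% and 2.33% of all probes, with a median of 0.43.

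**Figure D3:**
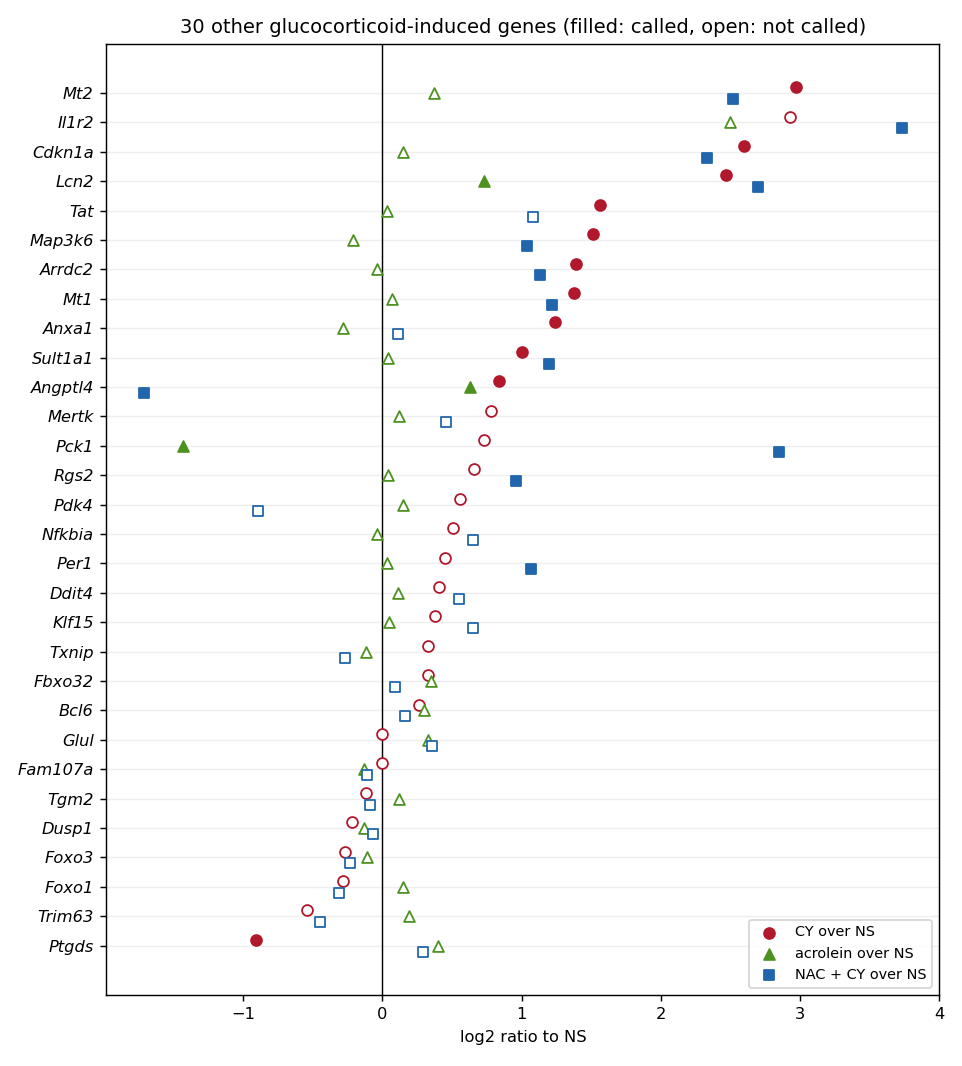
Log2 ratio to NS of the 30 other glucocorticoid-induced genes, each by its brightest present probe, for CY (circles), acrolein (triangles) and NAC + CY (squares), filled where called and ordered by the CY ratio. The circles and squares of most genes in the upper part lie together and right of the triangles, whereas Angptl4, Pck1, Pdk4, Ptgds and Anxa1 have CY and NAC + CY far apart, and NS was not well above background for Il1r2.

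Of 21 genes for receptor partners and steroid supply, 20 were present, and 1 was called for CY over NS (5.0%, beside 5.39% of all probes). Fkbp4 encodes FKBP52, the relative of FKBP51 that favours receptor activity and hormone binding. It read 8869 units on CY, 20207 on acrolein, 10325 on NAC + CY and 19656 on NS, with log2 ratios to NS of -1.15 for CY and -0.93 for NAC + CY, both called lower, and 0.04 for acrolein. By their brightest probes, of which that of Fkbp4 is 1 of 3 present, Fkbp4 and Fkbp5 thus differed from NS in opposite directions on the same 2 arrays. No other gene of the list was called against NS, and the medians were -0.21 (CY), 0.04 (acrolein) and 0.00 (NAC + CY). The chaperone gene Stip1 was at -0.74 on CY, the mineralocorticoid receptor gene Nr3c2 at -0.57 and the co-chaperone gene Ptges3 at 0.57. Hsd11b1, which encodes the enzyme that regenerates active hormone inside cells, read 695 units on CY, 609 on acrolein, 1109 on NAC + CY and 510 on NS, and was called higher on NAC + CY over CY (0.67) but not over NS (1.12). Its partner of opposite direction, Hsd11b2, was not present.

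Close relatives of the 9 genes were read as well. Of 14 paralogs 13 were present, and for CY none was called higher and only Fkbp4 lower (7.69%, beside 5.39% of all probes called in either direction), with a median of -0.34. The largest uncalled ratio on CY was that of the C/EBP gene Cebpa, at 0.93. Zbtb20, a zinc-finger gene of the Zbtb16 family, was at -0.66, the kinase gene Sgk3 at -0.60 and the second receptor gene Nr3c2 at -0.57 on CY. For CY over acrolein Cebpa was called higher (1.39) and Fkbp4 lower (-1.19), each 7.69%, with a median of -0.42. Of all probes, 2.75% were called higher and 2.33% lower there. For NAC + CY over NS, Cebpa was called higher at 1.09 and Fkbp4 lower, with a median of -0.16. For acrolein over NS none was called, with a median of -0.02. Tsc22d1 (-0.06), Tsc22d2 (-0.01) and Tsc22d4 (-0.47) were not called on the CY array on which Tsc22d3 was, nor were Hif1a (-0.34) and Epas1 (-0.52), the other alpha subunits, beside Hif3a.

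Genes that glucocorticoids restrain were called in both directions. Of 17 listed, 12 were measured for CY, with 3 called higher and 1 lower, beside 2.84% and 2.55% of all probes, and a median of 0.99. The medians of this list include measured ratios of genes not well above background on NS, so their size is uncertain. For CY these genes were Il6, Cxcl10 and Ptgs2. Mmp3, a matrix protease gene, had a log2 ratio of 3.19, Icam1, a leukocyte adhesion gene, one of 1.14, and the chemokine gene Cxcl10 was at least 2.38-fold higher, while the chemokine gene Ccl5 was called lower, with 24.4 units on CY and 97.6 on NS. For acrolein 5 of 12 were called higher (41.7%, beside 1.05% of all probes) and none lower, with a median of 0.35, namely Cxcl10 (at least 3.56-fold), the interleukin gene Il1b (at least 3.45-fold), the chemokine genes Cxcl1 (0.95) and Ccl2 (0.62), and Icam1 (0.66). For NAC + CY 3 of 14 were called higher (21.4%) and 1 lower (7.14%), beside 2.32% and 2.28% of all probes, with a median of 0.61. These were the prostaglandin synthase gene Ptgs2 (at least 3.44-fold), Mmp3 (2.03), Icam1 (1.60) and, lower, Ccl5 (-2.83). For CY over acrolein 1 of 13 was called higher (7.69%) and 3 lower (23.1%), with a median of -0.32. Of all probes, 2.75% were called higher and 2.33% lower there. Mmp3 (3.20) was higher, while Il1b (at least 4.56-fold), Ccl5 (-1.79) and Ccl2 (-1.40) were lower. The T and NK cell markers, with 4 of 5 present, summed to 274 units on CY, 433 on acrolein, 276 on NAC + CY and 467 on NS, and are thus low on the same 2 arrays as Ccl5, a chemokine that these cells also make. Among them Klra8 was at least 5.91-fold lower on CY and 6.06-fold lower on NAC + CY. Their part in the Ccl5 signal was not tested. Icam1 was called higher on all 3 treated arrays, as Cebpd was. The neutrophil sums given above were also higher on all 3, and their part was not tested.

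**Figure D4:**
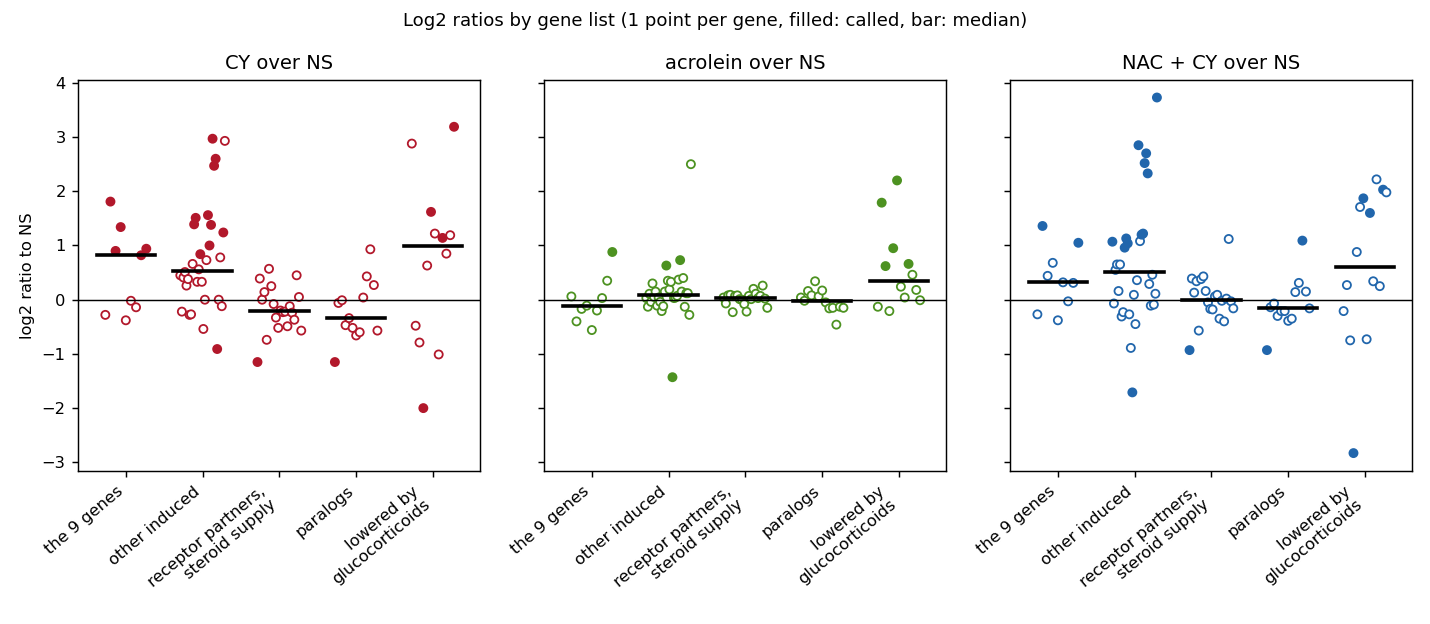
Log2 ratio to NS of each measured gene of 5 lists, for CY, acrolein and NAC + CY in separate panels, filled where called, with a bar at the list's median. For CY the medians of the 9 genes (0.82) and of the other induced genes (0.53) lie above 0, and those of receptor partners (-0.21) and paralogs (-0.34) lie below it. That of genes lowered by glucocorticoids (0.99) also lies above 0. It includes Il6, Cxcl10 and Ptgs2, which were not well above background on NS, so its rank among the lists is uncertain. For acrolein the first 4 medians lie within 0.11 of 0 and the last is 0.35. Where a gene was not well above background on NS the plotted ratio is that of the measured signals.

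Genes with the most similar pattern were sought for Fkbp5, Hif3a and Cebpd, by the distance between their 3 log2 ratios to NS, among 14266 genes present on all 4 arrays. Nearest to Fkbp5 were Fbxo2 (distance 0.17), Rasd1 (0.23) and Ms4a4a (0.25), of which Rasd1, a Ras-like gene, is named for its induction by dexamethasone, a synthetic glucocorticoid. Rasd1 had log2 ratios to NS of 1.66 (CY), -0.40 (acrolein) and 1.53 (NAC + CY). In the same order, Fbxo2 had 1.75, -0.30 and 1.23, and Ms4a4a had 1.92, -0.62 and 1.39. Nearest to Hif3a were Rnase4 (0.04), Pqlc3 (0.09) and Hspa2 (0.11), and nearest to Cebpd were Casp4 (0.27), an inflammatory caspase gene, Yy2 (0.28) and Gm9895 (0.28). These likenesses rest on 4 arrays, with NS shared by all 3 ratios. The control genes had log2 ratios to NS of 0.02 (Actb) and 0.05 (Gapdh) for CY, 0.00 and -0.03 for acrolein, and -0.33 and 0.06 for NAC + CY, and none was called.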

How the data were processed

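The authors labelled heart RNA with Cy3, hybridised 1 SurePrint G3 Mouse Gene Expression array per condition and quantified the scans in Agilent Feature Extraction (version 9.5.1.1 in the submitters' notes, 10.7.1.1 in the file headers). The deposited intensity values are background-subtracted signals of each spot, in arbitrary fluorescence units. The authors' deposited value table holds linear intensity values of the same arrays, which share 1 sorted set of values (median 13.9), and its use was an alternative. Although the series text mentions 3 independent studies, a single array was read for each condition.

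Here, log2 signals of 59305 non-control spots were quantile-normalised over the 4 arrays and averaged per probe. Quantile normalisation, the P flag on at least 1 of the 2 arrays, the Z-score and the ratio criteria follow the authors' methods, and the window of 200 probes was chosen here. No spot was saturated, and 47.1% to 50.0% of probes were well above background. A probe that was not above background on 1 array gives a bound, its signal on the other array over the lowest signal well above background there. Where the measured signal was higher than that lowest signal, the measured signal was used instead. Probes were named through the RefSeq table of GRCm38.p6 by accession (32994), symbol (10224) or synonym (520), while the other 12867 kept the file's own name. The 9 genes were found by the file's own name. Probe positions are those of the files (mm9), and no exon annotation of that build was used.

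Each treated array was compared with NS, NAC + CY also with CY, and CY with acrolein, 5 comparisons in all. The genes named are all 9 genes, called members of each list and up to 4 with the largest absolute ratios, the 3 nearest genes to each of 3 genes, and Actb and Gapdh. Dusp1, Ddit4, Klf15, Tsc22d1, Tsc22d2, Tsc22d4, Hif1a and Epas1 were added after their values were seen. The 9 genes and all lists were chosen with earlier results of these data known, and the lists come from general knowledge. The alternatives covered normalisation, background correction, filters, window, thresholds, probe choice and the reference array. Normexp correction (offset 50) was run in R 4.3.3 with limma 3.58.1, and all else in Python 3.11.15 (numpy 2.4.6, pandas 2.3.3, matplotlib 3.10.9).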

Additional observations from a re-analysis of the deposited data

How the results depend on the processing

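Each ratio and call of the 9 genes was recomputed under 14 planned settings. The counts of the 30 other induced genes were recomputed under the same settings except the median over probes. CY and NAC + CY were also set against the acrolein array in place of NS, which was chosen after the data were seen because airway transcripts were high on NS. These were about as high on CY, with summed signals of 345 units beside 367 on NS, 32.6 on acrolein and 13.3 on NAC + CY. For CY the swap thus adds an airway difference and is no check on tissue composition. No called ratio of the 9 genes changed sign, whereas, against acrolein, the uncalled ratios of Zbtb16 (0.18 for CY and NAC + CY), Sgk1 (0.18 for CY) and Errfi1 (-0.04 for NAC + CY) did. Small uncalled ratios also changed sign under planned settings, such as Sgk1 for CY over NS (0.08 with normexp correction). Cebpd for CY over acrolein reached -0.02 at its lowest. The 5 genes called higher for CY over NS became 1 at a Z-score of at least 3, 2 at a ratio of at least 2 and 3 with the acrolein array. The 1 gene called higher for acrolein became 0 at a ratio of at least 2. The 2 called higher for NAC + CY over NS became 0 at a Z-score of at least 3, 1 with the median over probes and 1 with the acrolein array. For NAC + CY over CY, the count called lower went to 1, Hif3a, with a window of 100 probes, the median and MAD, or the ratio alone. The 3 genes called higher for CY over acrolein became 1 at a Z-score of at least 3. Hif3a lost its CY call with 75th percentile scaling, and Errfi1 lost its CY call with normexp correction or a window of 100 probes. The causes were not tested, apart from the stricter thresholds themselves. Of the 30 other genes, the 10 called higher for CY over NS became 5 and the 10 for CY over acrolein 6 at a Z-score of at least 3, the 1 called lower for CY became 0 at that Z-score or a ratio of at least 2, and the 2 called higher for acrolein became 0 at a ratio of at least 2. The 1 called lower for NAC + CY over NS became 2 under several settings, as did that for CY over acrolein under 2. No paired analysis was possible because each condition has 1 array.

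The number of arrays limits every value: mouse, heart piece and array cannot be told apart from treatment. Signals near background, as for probe 3 of Fkbp5 and probe 2 of Errfi1, carry little information on the size of a difference.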
